A study of Mus musculus with 12 samples.

Results

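Transcriptomes of bone marrow mesenchymal stem cells (MSCs) labelled Chd7 knockout were compared between adipogenic and osteogenic medium. The comparison takes in 6 of the 12 libraries of the series, 3 per medium, chosen by genotype label alone and without use of any expression value. The other 6 libraries are controls in the same media and are used to test where the medium difference of the knockout libraries departs from theirs. All cells came from 4-week-old C57BL/6 mice and were at passage 3. The knockout genotype was Prx1-cre;Chd7fl/fl, in which Cre is expressed from a promoter active in limb mesenchyme and removes exon 2 of Chd7. Controls were Chd7fl/fl, so both genotypes carried the floxed allele. RNA was taken 5 days after induction. Osteogenic medium was supplemented with β-glycerophosphate at 10 mM, ascorbic acid at 50 µM and dexamethasone at 10 nM. In adipogenic medium dexamethasone was at 1 µM, with isobutylmethylxanthin at 0.5 µM and insulin at 10 µg/ml. The labels do not say whether the 3 libraries of a group came from separate mice, so the p-values measure only the spread between these libraries, which may be technical.

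MSCs are marrow stromal progenitors that can form bone, fat or cartilage cells. Dexamethasone activates the glucocorticoid receptor and is a component of both induction media, insulin drives lipid synthesis, and isobutylmethylxanthin inhibits phosphodiesterases and so raises cAMP. Ascorbic acid is a cofactor of the enzymes that hydroxylate collagen, and β-glycerophosphate supplies phosphate for mineral. Runx2 and Sp7 direct osteoblast differentiation, whereas PPAR-γ (Pparg) and C/EBPα (Cebpa) direct adipocyte differentiation. CHD7 is an ATP-dependent chromatin remodeller.

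Expression was given as FPKM, fragments scaled to gene length and library depth. From the smallest steps of the FPKM values, 18648017 to 18982211 fragments on genes were recovered per knockout library, and 3 fragments on a 1 kb gene corresponded to 0.158 to 0.167 FPKM. Chd7 was measured at 2.03, 2.35 and 2.28 FPKM in the knockout osteogenic libraries and at 2.03, 2.35 and 2.48 in the knockout adipogenic libraries (log2 fold change 0.03 ± 0.078 (SE), adjusted p = 0.787). In the control libraries it was at 2.64, 2.67 and 2.77 and at 2.26, 1.81 and 2.23. In osteogenic medium the 3 knockout libraries lay below the 3 control libraries, whereas in adipogenic medium the genotypes overlapped. Since the deletion removes 1 exon, a gene-level value does not check the label.

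Markers of the cell types that the cultures could hold were read first. Of 12 stromal markers, 10 passed the level filter. The summed level of all 12 was 567 to 595 FPKM in osteogenic and 612 to 636 in adipogenic medium. Thy1, the gene of the stromal surface antigen CD90, was at 0.576, 0.572 and 1.03 and at 0.498, 0.354 and 0.264 FPKM and did not pass the filter. All 17 macrophage markers passed it. They summed to 15887 to 16169 FPKM in osteogenic and 7682 to 9271 in adipogenic medium, most of it Lyz2, the lysozyme gene of macrophages, and to 4831 to 4955 and 3838 to 4261 without Lyz2. 10 of these markers fell, 2 rose and 5 did not pass the test, beside 20.1% lower and 19.3% higher over all genes tested. These shares stand beside every marker count here, and sets of 2 to 5 genes are too small to set against them. With all 12 libraries in the fit 5 macrophage markers fell and 1 rose, and 1 rose without the second or the third osteogenic library. Of the stromal markers 5 rose and 3 fell (5 fell without the first adipogenic library), and Ly6a, the gene of the antigen Sca-1, was among those that fell (-1.13). Of the markers of other cells, 0 rose and 2 fell of 4 tested for osteoclasts, 1 rose and 3 fell of 5 for endothelium (1 and 1 of 4 without any 1 osteogenic library, 0 and 2 of 4 without any 1 adipogenic library), 0 rose and 1 fell (2 without that library) of 2 for neutrophils and 0 rose and 2 fell of 2 for lymphocytes (1 fell without any 1 osteogenic library), while 2 rose and 0 fell of 3 for mature adipocytes (1 rose without any 1 osteogenic library or the second adipogenic one) and none of 7 erythroid markers passed the filter. The 4 globin genes, the T cell genes Cd3e, Cd3g and Cd8a and the neutrophil genes S100a9 and Ly6g were listed at 0 in all 6 libraries. In bulk RNA, fewer cells of a type and less RNA per cell cannot be told apart. The libraries held macrophage as well as stromal RNA, so a change in a gene cannot be assigned to 1 cell type. Whether the macrophages carried the Chd7 deletion was not tested.

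The first knockout adipogenic library stood apart. Its log2(FPKM + 1) values correlated with those of the second and the third at r = 0.980 to 0.981 across genes, compared with 0.992 between those 2 and 0.990 to 0.991 among the osteogenic libraries. Of 22 inflammatory cytokine and chemokine genes tested, 15 were more than 1.5 times higher in it than in either of the others, compared with 3.04% of all genes tested. The first knockout adipogenic library correlated with the first and the third control adipogenic libraries at r = 0.949 to 0.952. For the second and the third knockout adipogenic libraries the same correlations were 0.919 to 0.924. Several results that rest on the first knockout adipogenic library are given with and without it, or with the value of each library.

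A large part of the transcriptome differed between the libraries of the 2 media. Of 12279 genes at 1 FPKM or more in at least 3 of the 6 libraries, 4838 passed the test (39.4%; limma on log2(FPKM + 1), Benjamini-Hochberg adjusted p under 0.05). In adipogenic medium, 2366 genes were higher (19.3%) and 2472 were lower (20.1%). These shares are the background for the marker counts above and every list count below, and counts near them do not set a list apart. Scaling every library to the same FPKM sum (TPM) moved the split to 3211 higher and 1937 lower, with the median of all genes 0.059 above 0 on the log2 scale. Of the called genes 326 changed by more than 2-fold, 161 up and 165 down (647 with a pseudocount of 0.1 and 669 with voom on recovered fragments). The 2 groups of libraries did not overlap for 6602 genes (53.8%), among them 4834 of the 4838 called genes. Without the first adipogenic library, 5059 genes were called, 2341 higher and 2718 lower.

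The 10 largest increases among genes reaching a mean of 5 FPKM were in Ptx3 (log2 fold change 2.65 ± 0.36 (SE)), Rgcc (log2 fold change 2.62 ± 0.16 (SE)), Clca3a1 (log2 fold change 2.42 ± 0.13 (SE)), Fkbp5 (log2 fold change 2.38 ± 0.14 (SE)), Alpl (log2 fold change 2.34 ± 0.071 (SE)), Tnn (log2 fold change 2.29 ± 0.07 (SE)), Slc1a6 (log2 fold change 2.23 ± 0.084 (SE)), Cryab (log2 fold change 2.20 ± 0.079 (SE)), Cdo1 (log2 fold change 2.17 ± 0.11 (SE)) and Sdc4 (2.10 ± 0.16 (SE)). They include Tnn, the matrix protein tenascin-N of bone-lining periosteum, Cryab, a small heat shock protein, Cdo1, which oxidises cysteine, and Sdc4, a cell surface proteoglycan. Tnn went from 13.4, 12.8 and 15.5 FPKM in osteogenic medium to 71.5, 70.6 and 72.6 in adipogenic medium, with 5.16 times the mean and adjusted p = 1.7e-05. Ptx3, a secreted pattern recognition protein, was at 10.4, 10.4 and 10.8 and at 135, 52.2 and 51.5 FPKM, with the first adipogenic library far above the others. All leave-one-out fits kept its call, and groups that did not overlap were a condition of this list.

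The 10 largest decreases were in Clec4n (-3.69 ± 0.32 (SE)), Nqo1 (-3.25 ± 0.057 (SE)), Nxpe5 (-3.19 ± 0.17 (SE)), Mmp8 (-2.92 ± 0.063 (SE)), Fcrls (-2.50 ± 0.08 (SE)), Sema7a (-2.47 ± 0.086 (SE)), Mmp12 (-2.21 ± 0.084 (SE)), Slc40a1 (-2.20 ± 0.15 (SE)), Dbp (-2.18 ± 0.12 (SE)) and Gsta3 (-2.12 ± 0.24 (SE)). Clec4n (dectin-2), a C-type lectin of myeloid cells, fell from 121, 131 and 129 FPKM to 16.4, 6.43 and 6.52. Mmp12, the macrophage elastase, fell from 18.8, 22.3 and 19.8 to 3.18, 3.85 and 3.78 FPKM. Slc40a1, the iron exporter ferroportin, is prominent in macrophages, and it fell from 27.2, 29.4 and 26.4 to 3.86, 6.42 and 5.72 FPKM. Groups that did not overlap were a condition of this list. In the same libraries 10 of 17 macrophage markers fell and 2 rose (5 and 1 with all 12 libraries in the fit). The part of these markers in the decreases was not tested.

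**Figure D1:**
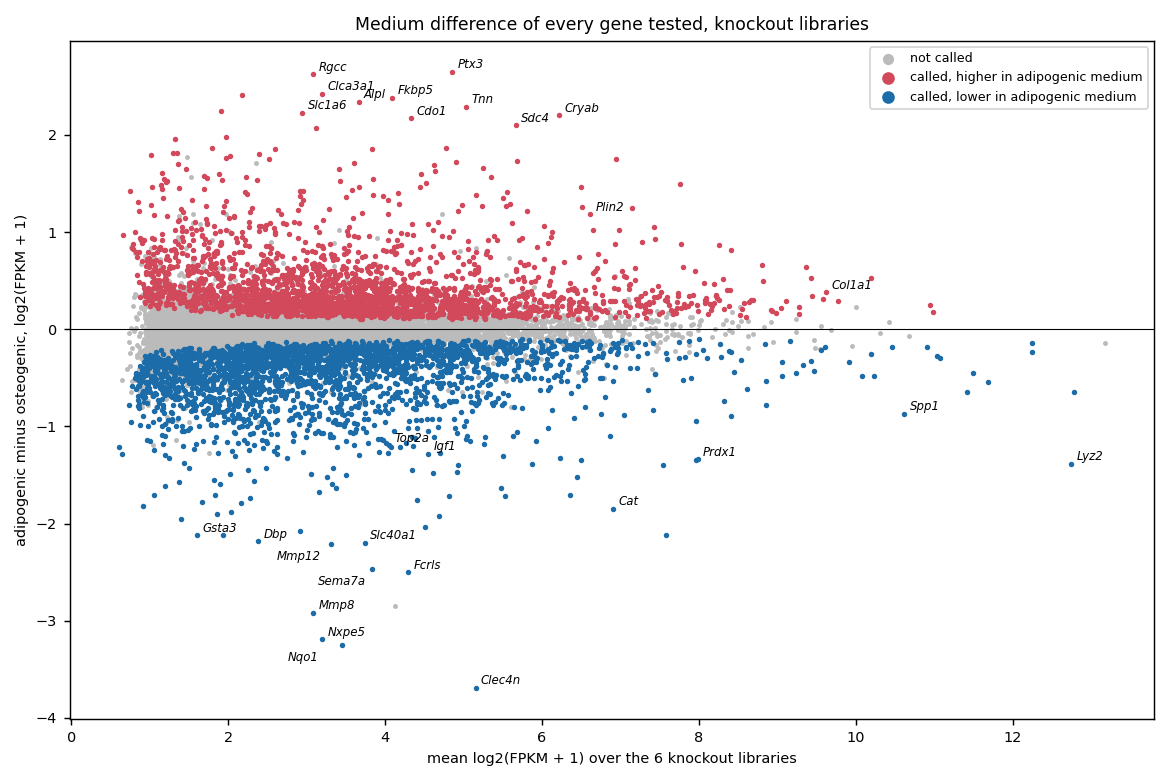
Medium difference (adipogenic minus osteogenic, log2(FPKM + 1)) of each of the 12279 genes tested in the knockout libraries against its mean level; red and blue points passed the test and grey points did not. Clec4n (-3.69) and Nqo1 (-3.25) lie lowest and Ptx3 (2.65) highest, and Lyz2 stands at the right edge as an abundant gene that fell.

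Genes that the glucocorticoid receptor induces in many tissues rose almost as a group. Of 22 tested members of a 26-gene list, 18 rose, 3 fell and 1 did not pass the test, with a median log2 difference of 0.99 against 0.01 over all genes tested. Fkbp5, an HSP90 co-chaperone that restrains the receptor, was at 6.90, 6.29 and 6.19 FPKM in osteogenic medium and at 29.9, 42.8 and 41.9 in adipogenic medium, a 5.92-fold rise of the mean (log2 fold change 2.38 ± 0.14 (SE), adjusted p = 8.32e-05). Tsc22d3 (GILZ), an anti-inflammatory target, was at 13.3, 13.7 and 13.2 and at 43.1, 56.6 and 56.1 FPKM (1.87 ± 0.10 (SE), adjusted p = 8.25e-05). Both genes were lowest in the first of the 3 adipogenic libraries, and neither had overlapping groups.

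Zbtb16 (PLZF), a transcription factor, was at 0.284, 0.408 and 0.353 FPKM in osteogenic and 2.12, 5.16 and 4.59 in adipogenic medium (1.82 ± 0.25 (SE), adjusted p = 0.00209). Pdk4, the kinase that closes pyruvate dehydrogenase, was at 25.6, 28.2 and 27.8 and at 86.3, 96.8 and 94.8 FPKM (1.73 ± 0.059 (SE), adjusted p = 2.4e-05). The clock gene and receptor target Per1 was at 6.54, 6.34 and 5.96 and at 16.1, 20.1 and 19.9 FPKM (1.43 ± 0.09 (SE), adjusted p = 0.000107). Of members chosen after their values were seen, Klf9 (1.20), Mt1 (1.49), Sult1a1 (1.54), Dusp1 (0.92) and Sgk1 (0.49) also rose. The members that fell were Tgm2 (-0.47), Angptl4 (-0.63) and Cry2 (-0.47). Angptl4 and Tgm2 lost their calls when any library except the first adipogenic one was left out, with adjusted p between 0.0514 and 0.0969. Without the first adipogenic library, 17 of 20 tested members rose and 3 fell.

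Promoters of 20 listed genes were searched on both strands for the palindromic receptor site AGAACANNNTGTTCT in the 250 bases before and 50 bases after the start. Among 32851 RefSeq promoter windows (GRCm38.p6) 3 held an exact match (0.00913%), and 1 of 31 windows of the list did, that of Sgk1, the serum and glucocorticoid regulated kinase. The 250 bases before the start of Sgk1 (chr10:21993640-21993889, plus strand) are shown because this is the sole listed promoter with the site, in capitals. The site lies upstream of the transcript start that defines this window, and a gene can have more than 1 start.
Sgk1: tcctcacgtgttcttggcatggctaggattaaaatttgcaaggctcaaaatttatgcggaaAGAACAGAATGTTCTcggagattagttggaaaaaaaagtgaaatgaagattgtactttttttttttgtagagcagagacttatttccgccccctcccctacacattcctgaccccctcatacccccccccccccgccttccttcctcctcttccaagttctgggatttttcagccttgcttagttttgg
Sgk1 was at 39.8, 39.7 and 41.4 FPKM in osteogenic and 59.1, 54.9 and 57.3 in adipogenic medium (0.49 ± 0.041 (SE), adjusted p = 0.000299). Fkbp5 and Tsc22d3, which rose more, held no exact match in these windows. The match describes letters only and does not show binding.

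**Figure D2:**
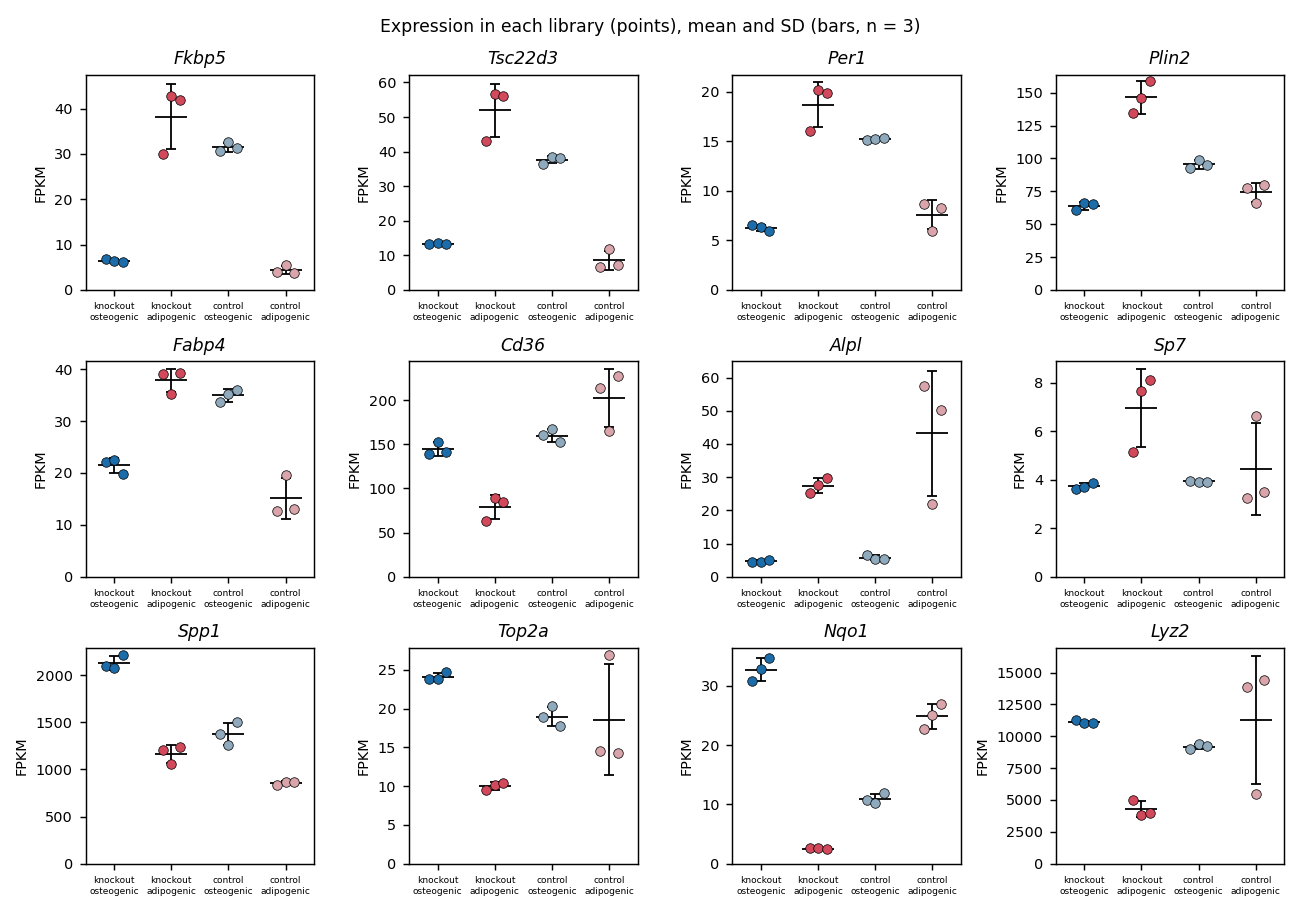
FPKM of 12 genes in each library (points) with the mean and SD of each group (bars, n = 3), for the knockout libraries (strong colours) and control libraries (pale colours) in both media. Fkbp5, Tsc22d3 and Per1 are higher in adipogenic than osteogenic medium in all 3 knockout libraries and lower in all 3 control libraries; Alpl is higher in adipogenic medium in both genotypes.

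Adipocyte genes were measured next. Of 8 mature adipocyte markers, 5 were below 1 FPKM in all 6 libraries. Among the low ones, Adipoq (adiponectin) was at 0.202, 0.600 and 0.278 FPKM in osteogenic and 0.277, 0.154 and 0.268 in adipogenic medium. The lipid droplet genes Plin1 and Cidec and the hormone genes Lep and Cfd had group means of at most 0.180 FPKM. None of these 5 genes passed the level filter, and no rise was detectable at this depth.

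Of 24 adipogenic transcription factors 15 were tested, and 1 rose, 3 fell and 11 did not pass the test (median 0.069). Pparg was at 6.33, 7.51 and 7.18 FPKM in osteogenic and 6.89, 12.4 and 10.8 in adipogenic medium (log2 fold change 0.43 ± 0.19 (SE), adjusted p = 0.12), and Cebpa was at 101, 104 and 99.8 and 53.0, 88.6 and 89.3 (-0.44 ± 0.19 (SE), adjusted p = 0.122). The groups overlapped for Pparg and not for Cebpa. Without the second adipogenic library 3 factors rose. Without the first, 5 rose and 5 fell, with Pparg called higher by 0.65 (adjusted p = 0.00171) and Cebpa lower by 0.19 (adjusted p = 0.00564). Cebpb (0.56 ± 0.33 (SE), adjusted p = 0.228) and Cebpd (0.56 ± 0.18 (SE), adjusted p = 0.0501) are early factors of the programme and did not pass the test; Cebpd passed it without the first or the second adipogenic library (adjusted p = 0.0287 and 0.0222). Ebf1, an early B cell factor also active in adipocyte precursors, rose (0.63 ± 0.082 (SE), adjusted p = 0.00173). Srebf1 (-0.30), the regulator of lipid synthesis, Rxra (-0.30), the partner receptor of PPAR-γ, and Ppard (-0.22) fell, the last losing its call without the first or the third osteogenic library (adjusted p = 0.0589 and 0.0628).

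Genes of fatty acid uptake, synthesis and storage moved in both directions. Of 33 tested members, 12 rose, 12 fell and 9 did not pass the test (median 0.03), with 7 rising without the second osteogenic or the second adipogenic library. Plin2, the lipid droplet coat protein of most cell types, was at 60.4, 65.9 and 65.4 FPKM in osteogenic and at 134, 146 and 159 in adipogenic medium, 2.29 times the mean (1.18 ± 0.069 (SE), adjusted p = 8.77e-05). Fabp4, the fatty acid binding protein of adipocytes and macrophages, was at 22.1, 22.5 and 19.8 and at 39.1, 35.2 and 39.2 FPKM (0.79 ± 0.066 (SE), adjusted p = 0.000293). Lpl, lipoprotein lipase, rose less (0.35 ± 0.10 (SE), adjusted p = 0.0317), and its call was lost in 4 of 6 leave-one-out fits (adjusted p between 0.0531 and 0.0992). The fatty acid transporter Cd36 was at 139, 153 and 142 and at 63.1, 89.1 and 85.1 FPKM and fell (-0.88 ± 0.13 (SE), adjusted p = 0.0027).

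The desaturase gene Scd2 (-1.10), Acsl3 (-0.98), which activates fatty acids, and Fabp5 (-0.95) fell as well, and hormone-sensitive lipase, Lipe, rose (0.28 ± 0.091 (SE), adjusted p = 0.0498) but lost its call in 5 of 6 leave-one-out fits (adjusted p between 0.0516 and 0.146). Of 10 tested adipocyte hormones and secreted proteins, 3 rose, 4 fell and 3 did not pass the test. The falls numbered 0 without the first or the third osteogenic library, 1 without the second osteogenic or the second adipogenic one, and 2 with TPM scaling or all 12 libraries in the fit. The members that rose include Pdgfrb (0.84), a growth factor receptor that is also a stromal marker, and Nnmt, an enzyme, neither of which is secreted. Apln, the gene of the peptide apelin, fell (-0.84).

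Osteoblast markers were higher in adipogenic than in osteogenic medium, while genes of bone matrix and mineralization went both ways. All 7 osteoblast markers that passed the level filter, of 8 listed, rose, with a median log2 difference of 0.84. Alpl, tissue-nonspecific alkaline phosphatase, which frees phosphate for mineral, was at 4.50, 4.41 and 4.97 FPKM in osteogenic medium and at 25.1, 27.6 and 29.6 in adipogenic medium, a 5.94-fold rise of the mean (2.34 ± 0.071 (SE), adjusted p = 1.7e-05). The osteocalcin gene Bglap2 was at 1.89, 1.88 and 1.75 and at 5.31, 7.77 and 6.70 FPKM (1.41 ± 0.12 (SE), adjusted p = 0.000301). Bglap and Bglap2 are near-identical neighbours whose fragments can be split between them, so each value alone is uncertain; Bglap moved the same way (1.00).

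Among 21 tested osteoblast transcription factors 11 rose, 3 fell and 7 did not pass the test (median 0.35). Sp7 (osterix) was at 3.62, 3.69 and 3.86 FPKM in osteogenic and at 5.14, 7.65 and 8.13 in adipogenic medium (0.73 ± 0.15 (SE), adjusted p = 0.00893), Dlx5 at 2.73, 1.97 and 2.70 and 4.47, 5.84 and 5.60 (0.86 ± 0.12 (SE), adjusted p = 0.00239), and Runx2 at 2.88, 2.60 and 2.86 and 3.54, 4.20 and 4.02 (0.38 ± 0.069 (SE), adjusted p = 0.00645). For none of the 3 did the groups overlap. Foxc2, a forkhead factor of mesenchyme, rose too (0.74 ± 0.063 (SE), adjusted p = 0.000327).

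Of 21 tested genes of bone matrix and mineralization, 13 rose, 7 fell and 1 did not pass the test (median 0.43). Ibsp (bone sialoprotein, 0.84), Sparc (osteonectin, 0.34), Omd (osteomodulin, 1.60) and Smpd3 (a sphingomyelinase needed for mineralization, 1.56) rose. Ank (-1.06), Enpp1 (-0.83), Pdpn (-0.73), Slc20a2 (-0.46), Slc20a1 (-0.37) and Bgn (-0.21) fell and were named after their values were seen. Spp1 (osteopontin), which macrophages and osteoblasts both make, fell from 2099, 2075 and 2218 to 1204, 1059.7 and 1235 FPKM (-0.87 ± 0.066 (SE), adjusted p = 0.00021).

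Of 22 tested collagen genes, 14 rose, 1 fell and 7 did not pass the test (median 0.37). Col1a1, the major chain of bone collagen, was at 744, 620.3 and 717 FPKM in osteogenic and 891, 906 and 905 in adipogenic medium (0.38 ± 0.07 (SE), adjusted p = 0.00641). The basement membrane chains Col4a1 (1.02) and Col4a2 (1.03) rose more, as did Col10a1 (1.08), while Col3a1 was 0.18 with adjusted p = 0.0682 (0.0293 without the second adipogenic library). Of 23 enzymes that process collagen, 14 rose, 3 fell and 6 did not pass the test, with Lox (0.66) and Loxl4 (0.81), which crosslink fibres, and Plod2 (0.78), a lysyl hydroxylase, among the changed genes.

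Contractile genes of smooth muscle rose with them. Of 21 tested, 14 rose, 3 fell and 4 did not pass the test (median 0.41; 1 fell without the first or the third osteogenic or the third adipogenic library). Acta2, smooth muscle actin, was at 993, 949.5 and 995 FPKM in osteogenic and at 1309, 1437 and 1494 in adipogenic medium (0.53 ± 0.057 (SE), adjusted p = 0.000799). Myocd, the coactivator myocardin, was at 0.381, 0.258 and 0.299 and at 2.96, 4.03 and 3.95 FPKM (1.82 ± 0.11 (SE), adjusted p = 9.85e-05), and Cnn1 (0.91) and Lmod1 (0.95) rose.

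**Figure D3:**
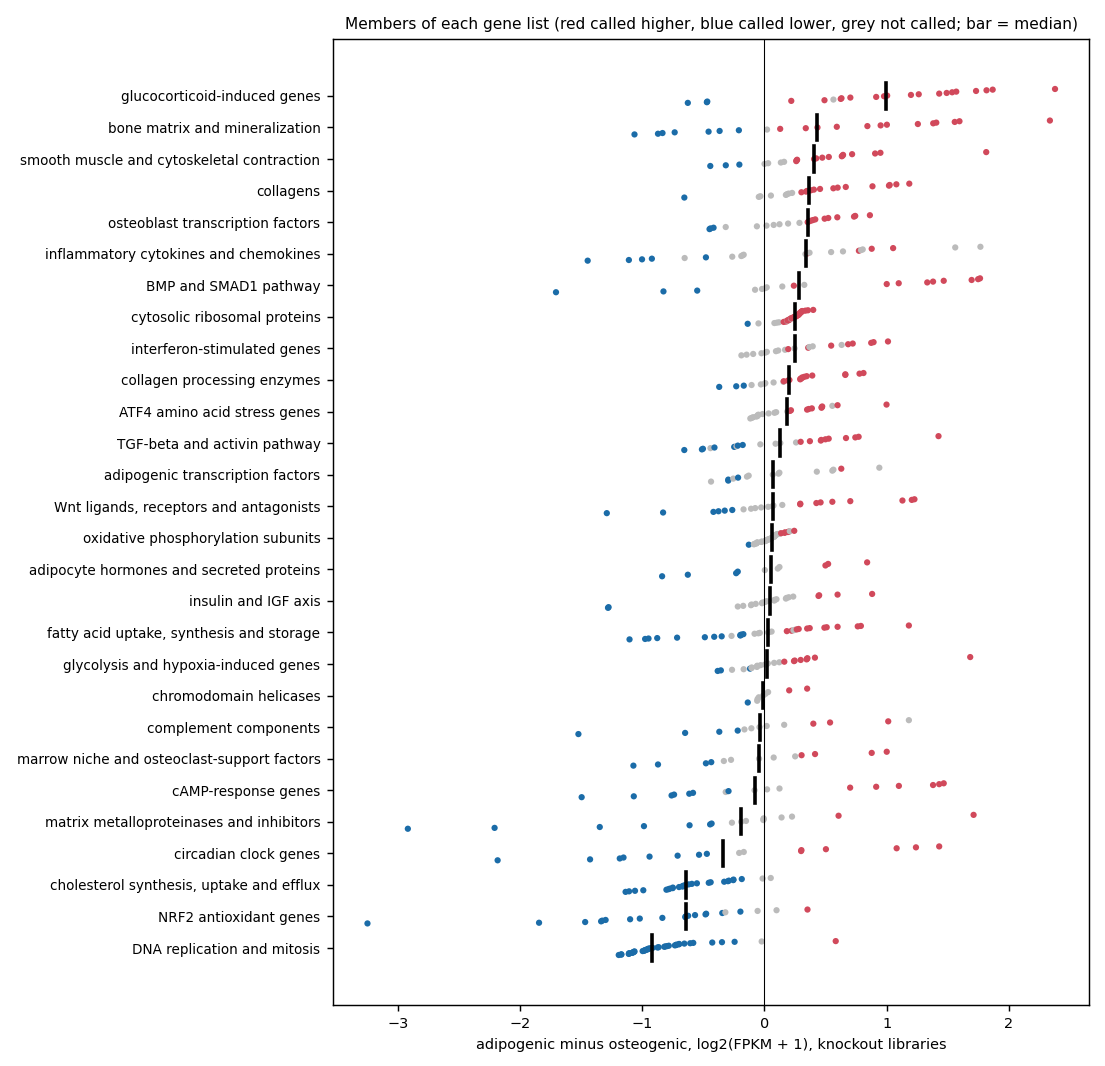
Medium difference (adipogenic minus osteogenic, log2(FPKM + 1)) of each tested member of each gene list in the knockout libraries, ordered by the list's median (black bar); red and blue points passed the test and grey points did not. Glucocorticoid-induced genes have the highest median (0.99) and genes of DNA replication and mitosis the lowest (-0.92).

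Genes of DNA replication and mitosis fell nearly throughout. All 40 listed genes were tested, and 1 rose, 38 fell and 1 did not pass the test (median -0.92, against 0.01 over all genes tested). Top2a, which untangles DNA, was at 23.8, 23.8 and 24.7 FPKM in osteogenic and at 9.45, 10.2 and 10.4 in adipogenic medium, 2.41 times lower (-1.19 ± 0.046 (SE), adjusted p = 2.81e-05). Cdc20, an activator of the anaphase-promoting complex, was at 28.6, 26.3 and 28.5 and 11.0, 11.1 and 13.3 FPKM (-1.17 ± 0.077 (SE), adjusted p = 0.000125), and Mki67, the proliferation antigen, at 21.7, 20.8 and 21.1 and 10.9, 10.4 and 10.3 (-0.95 ± 0.04 (SE), adjusted p = 3.89e-05). No group of libraries overlapped for these genes. Plk1 (-1.17) and Kif11 (-1.11), a mitotic kinase and a spindle motor, fell alike. The member that rose, named after its value was seen, was Rrm2, a subunit of ribonucleotide reductase (0.58 ± 0.058 (SE), adjusted p = 0.000577).

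Promoters of late cell cycle genes often hold the element TTTGAA, the cell cycle genes homology region. The search for it was added after the values were seen. On either strand it occurred in 17 of 35 promoter windows of the list (48.6%), which belong to 16 of the 33 genes with a window, and in 17.9% of all 32851. The 100 bases before the start are shown for 4 members that fell, 5′ to 3′ along the gene, so that the place of the element near the start can be read. The element or its reverse complement TTCAAA is in capitals. The windows, in GRCm38.p6, are chr11:99024190-99024289 (minus strand), chr4:118437344-118437443 (minus), chr19:37376282-37376381 (plus) and chr7:80294376-80294475 (plus), each upstream of the first exon.
Top2a: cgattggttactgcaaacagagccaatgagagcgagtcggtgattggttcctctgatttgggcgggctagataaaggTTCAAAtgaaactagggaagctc
Cdc20: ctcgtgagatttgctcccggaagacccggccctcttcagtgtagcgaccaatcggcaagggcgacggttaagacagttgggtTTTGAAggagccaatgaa
Kif11: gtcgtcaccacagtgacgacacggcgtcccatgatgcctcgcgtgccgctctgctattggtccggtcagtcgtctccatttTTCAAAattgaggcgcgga
Prc1: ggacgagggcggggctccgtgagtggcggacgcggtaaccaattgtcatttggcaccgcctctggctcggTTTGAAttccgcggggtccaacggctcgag
The log2 differences of these 4 genes were -1.19, -1.17, -1.11 and -1.08.

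Cholesterol genes fell. Of 27 tested genes of cholesterol synthesis, uptake and efflux, none rose and 25 fell (median -0.64). Mvd, of the mevalonate pathway, was at 46.6, 46.7 and 39.7 FPKM in osteogenic and 22.2, 21.9 and 21.1 in adipogenic medium (-0.99 ± 0.069 (SE), adjusted p = 0.000155), and Dhcr7, the last enzyme of synthesis, at 16.6, 15.6 and 15.8 and 6.17, 7.98 and 7.42 (-1.06 ± 0.085 (SE), adjusted p = 0.000262). Abca1, which exports cholesterol, and Mylip, which degrades the LDL receptor, act against accumulation, and they fell too (-1.11 and -1.14).

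The targets of NRF2, the transcription factor of the antioxidant response, fell. Of 21 tested, 1 rose, 17 fell and 3 did not pass the test (median -0.65). Nqo1, the quinone reductase, was at 30.8, 32.8 and 34.7 FPKM in osteogenic and at 2.64, 2.60 and 2.41 in adipogenic medium, 12.9 times lower (-3.25 ± 0.057 (SE), adjusted p = 5.39e-06). Cat, catalase, was at 223, 235 and 222 and at 71.6, 57.9 and 58.4 FPKM (-1.84 ± 0.085 (SE), adjusted p = 5.67e-05). The groups were far apart for both genes. Prdx1, a peroxiredoxin (-1.34), and Gclm, the modifier subunit of glutathione synthesis (-1.47), fell, whereas Gclc, the catalytic subunit, named after its value was seen, rose (0.35 ± 0.071 (SE), adjusted p = 0.00942).

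Signalling genes were read for each additive of the media. Of 17 tested cAMP-response genes, 6 rose, 7 fell and 4 did not pass the test (median -0.081; 4 fell without the second or the third osteogenic library), and 13 of 30 listed were below the filter. Nr4a1 was at 2.84, 3.01 and 2.80 FPKM in osteogenic and 1.56, 1.48 and 1.56 in adipogenic medium and fell (-0.62 ± 0.057 (SE), adjusted p = 0.000429), as did Rgs2 (-1.50) and Crem (-0.29), although Crem lost its call without the second or the third osteogenic library (adjusted p = 0.0702 and 0.0676). Id1 (1.38), Id3 (1.47) and Per1 rose, and Per1 is on the glucocorticoid list also.

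The cAMP response element TGACGTCA was present in 1.79% of all promoter windows, in 3 of 27 windows of the cAMP list (Areg, Btg2 and Dusp1) and in 2 of 31 of the glucocorticoid list (Dusp1 and Errfi1). The 200 bases before the start of Dusp1, a MAP kinase phosphatase that both lists hold, (chr17:26508473-26508672, minus strand, GRCm38.p6) and of Btg2, an antiproliferative gene (chr1:134079156-134079355, minus strand), are shown with the element in capitals, since these 2 genes of the cAMP list have the element and passed the level filter.
Dusp1: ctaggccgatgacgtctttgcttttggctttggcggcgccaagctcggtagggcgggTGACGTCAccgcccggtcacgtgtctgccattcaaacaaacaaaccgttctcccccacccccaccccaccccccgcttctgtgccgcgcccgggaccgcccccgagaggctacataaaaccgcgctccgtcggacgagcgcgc
Btg2: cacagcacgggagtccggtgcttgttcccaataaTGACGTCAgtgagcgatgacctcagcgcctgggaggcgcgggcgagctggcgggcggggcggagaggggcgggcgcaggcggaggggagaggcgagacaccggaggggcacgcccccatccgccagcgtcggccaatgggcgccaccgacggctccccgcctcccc
Dusp1 was at 37.3, 38.7 and 34.9 FPKM in osteogenic and 76.3, 67.1 and 68.5 in adipogenic medium (0.92 ± 0.063 (SE), adjusted p = 0.000149), and Btg2 was at 8.73, 8.81 and 8.91 and 16.9, 14.8 and 13.4 (0.70 ± 0.078 (SE), adjusted p = 0.000913). Both were higher in every adipogenic library. Areg was below the filter, at group means of 0.0604 and 0.0437 FPKM.

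In the insulin and IGF axis, of 22 tested genes 4 rose, 2 fell and 16 did not pass the test; with TPM scaling or voom 8 rose and 2 fell, and 2 rose and 3 fell without the second or the third adipogenic library. Without the first adipogenic library 4 rose and 4 fell. Igf1, a growth factor that stromal cells and macrophages secrete, was at 35.4, 37.2 and 33.5 FPKM in osteogenic and at 15.5, 14.1 and 12.5 in adipogenic medium (-1.28 ± 0.08 (SE), adjusted p = 0.000106). Its binding protein gene Igfbp5 was at 5.16, 4.08 and 4.85 and 1.15, 1.49 and 1.40 FPKM (-1.28 ± 0.10 (SE), adjusted p = 0.000199), and Igfbp2 rose (0.88).

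In the BMP pathway, ligands, targets and antagonists moved. Of 18 tested genes, 9 rose, 3 fell and 6 did not pass the test (median 0.28). The ligands Bmp4 (1.00) and Gdf6 (1.77) rose, as did the targets Id1, from 19.4, 23.1 and 21.2 to 50.8, 55.7 and 64.5 FPKM (1.38 ± 0.10 (SE), adjusted p = 0.000173), Id3 (1.47) and Id4 (1.75). The antagonists went opposite ways: Nog (noggin) rose (1.70 ± 0.20 (SE), adjusted p = 0.00107), while Grem1 (gremlin) fell from 148, 143 and 150.1 to 51.4, 41.6 and 40.7 FPKM (-1.71 ± 0.089 (SE), adjusted p = 7.42e-05). Grem1 was the more abundant of the 2 on the FPKM scale, which is per length.

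In the TGF-β and activin pathway 10 rose, 7 fell and 6 did not pass the test of 23 tested (4 fell without the third osteogenic library and 2 with all 12 libraries in the fit), and Fst (follistatin, an activin antagonist; 1.43) and Tgfb2 (0.77) rose. Of 23 Wnt genes 9 rose, 6 fell and 8 did not pass the test. The receptor Fzd5 (1.23), the agonist Rspo3 (1.21) and the antagonist Wif1 (1.13) rose and the antagonist Sfrp4 fell (-1.29).

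Of 13 tested niche and osteoclast-support factors, 4 rose, 4 fell and 5 did not pass the test. Cxcl12, which holds haematopoietic stem cells in the marrow, fell from 14.6, 13.8 and 13.1 to 9.48, 10.3 and 9.21 FPKM (-0.48 ± 0.058 (SE), adjusted p = 0.00128). Csf1, the macrophage growth factor, rose from 158, 155 and 166 to 309.8, 282 and 291 FPKM (0.88 ± 0.048 (SE), adjusted p = 8.08e-05). Nes (nestin) fell (-1.07). Tnfsf11 (RANKL), which drives osteoclast formation, was at 1.15, 1.24 and 1.13 and 1.17, 0.759 and 0.518 FPKM (-0.27 ± 0.14 (SE), adjusted p = 0.162; adjusted p = 0.0208 without the first adipogenic library), and its decoy receptor Tnfrsf11b was at 6.40, 6.12 and 6.41 and 5.57, 6.55 and 6.18 (-0.044 ± 0.061 (SE), adjusted p = 0.602).

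Of 17 tested metalloproteinase and inhibitor genes, 2 rose, 7 fell and 8 did not pass the test, and 11 fell without the first adipogenic library. Mmp8, a collagenase, was at 21.2, 23.1 and 22.8 FPKM in osteogenic and 1.87, 2.14 and 2.26 in adipogenic medium (-2.92 ± 0.063 (SE), adjusted p = 1.09e-05). Timp3, an inhibitor, fell (-1.35), and Adamts1, an aggrecan-cleaving protease, rose (1.71).

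Clock genes moved in both directions. Of 16 tested, 6 rose, 8 fell and 2 did not pass the test (median -0.34). Arntl (BMAL1), the activator, was at 0.585, 0.749 and 0.796 FPKM in osteogenic and at 3.06, 3.05 and 2.99 in adipogenic medium (1.24 ± 0.073 (SE), adjusted p = 8.77e-05), and Clock rose (0.30). Its targets Nr1d2 (REV-ERBβ), at 14.7, 16.0 and 16.0 and 4.90, 5.52 and 5.07 FPKM (-1.43 ± 0.058 (SE), adjusted p = 3.51e-05), and Dbp, at 10.3, 10.9 and 9.21 and 1.03, 1.70 and 1.65 (-2.18 ± 0.12 (SE), adjusted p = 8.25e-05), fell. Per2 (-0.54) and Per3 (-1.18) fell and Per1 rose. Clock, Per2 and Per3 were named after their values were seen, and the hour of harvest is not given in the labels.

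Of 17 macrophage markers, Lyz2 was at 11249, 11033 and 11056 FPKM in osteogenic and at 5010.3, 3845 and 3986 in adipogenic medium (-1.39 ± 0.10 (SE), adjusted p = 0.000175), and Aif1 fell (-1.13). Cd163, a scavenger receptor that glucocorticoids induce, rose from 1.44, 1.52 and 1.35 to 3.34, 4.53 and 4.41 FPKM (1.06 ± 0.10 (SE), adjusted p = 0.00052). Cd14, the endotoxin co-receptor, was at 14.8, 15.1 and 16.5 and 121, 32.4 and 37.8 FPKM (1.72 ± 0.46 (SE), adjusted p = 0.0269), but its call was lost without any 1 osteogenic library, with adjusted p from 0.0670 to 0.0780. Without the first adipogenic library, 11 of the markers fell and 2 rose. The osteoclast gene Atp6v0d2 fell (-1.19), while the fusion genes Dcstamp and Ocstamp were below 1 FPKM throughout. S100a8 (-1.16) and Cd4 (-1.18) fell from low levels, and Ighm was listed at 0 in all 3 adipogenic libraries.

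Inflammatory genes depended on the first adipogenic library. Of all genes tested, 19.3% were higher and 20.1% lower. Of 22 tested cytokines and chemokines, 4 rose, 5 fell and 13 did not pass the test (median 0.34). Without the first adipogenic library 4 rose and 9 fell (median -0.07). Without the first or the second osteogenic library 2 rose, and with all 12 libraries in the fit 1 rose and 3 fell. Tnf was at 8.02, 8.16 and 8.64 FPKM in osteogenic and at 71.8, 3.72 and 3.66 in adipogenic medium, so that the log2 difference of 0.34 (adjusted p = 0.822) turned to -0.98 (adjusted p = 5.48e-05) without the first library. Cxcl1 was at 0.416, 0.531 and 0.586 and at 25.6, 1.08 and 1.46 FPKM; both genes were named after their values were seen. Ccl7 rose (1.05 ± 0.25 (SE), adjusted p = 0.0172) but lost its call without the first or the second osteogenic library (adjusted p = 0.0585 and 0.0505). Cxcl14 (-1.45) and Ccl6 (-1.11) fell with no overlap between groups.

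Of 21 tested interferon-stimulated genes, 8 rose, 0 fell and 13 did not pass the test, beside 39.4% of all genes called. Without the first adipogenic library 7 rose and 3 fell. Isg15 was at 5.60, 6.87 and 6.39 and 16.1, 8.84 and 13.1 FPKM (0.87 ± 0.19 (SE), adjusted p = 0.0133), and Usp18 (1.01) and Oas3 (0.89) rose. With all 12 libraries in the fit, 0 of 23 tested passed limma's test, with adjusted p = 0.580 for Isg15, 0.423 for Usp18 and 0.341 for Oas3. Of 13 complement genes 3 rose, 4 fell and 6 did not pass the test, with Cfp, properdin, falling from 150.5, 146 and 142 to 64.7, 45.6 and 43.0 FPKM (-1.52 ± 0.15 (SE), adjusted p = 0.000492) and Serping1, the C1 inhibitor, rising (1.01).

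**Figure D4:**
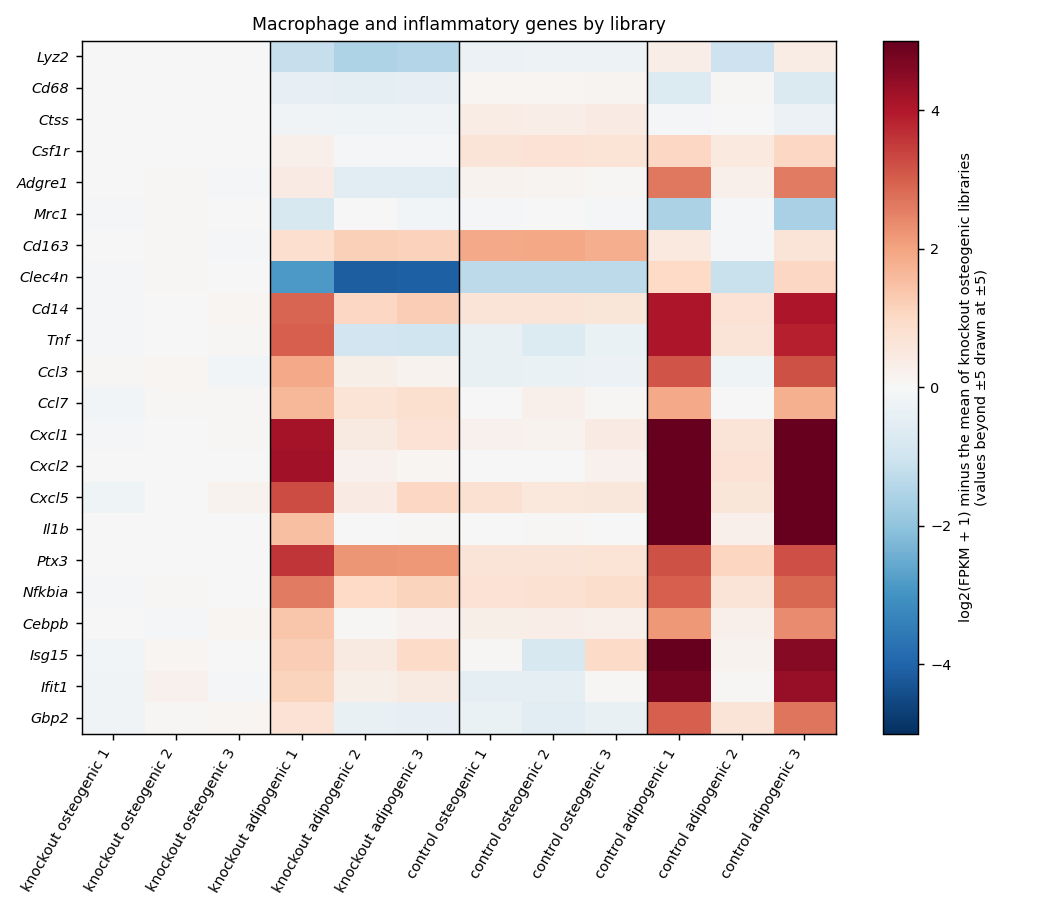
Level of macrophage and inflammatory genes in each of the 12 libraries, as log2(FPKM + 1) minus the mean of the 3 knockout osteogenic libraries (red higher, blue lower; values beyond 5 are drawn at 5). The first knockout adipogenic library has higher Tnf, Cxcl1, Cxcl2 and Cxcl5 than the other two, and among the control adipogenic libraries the second is close to the osteogenic ones.

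Metabolic and biosynthetic lists changed by less, and their counts stand beside 19.3% higher and 20.1% lower of all genes tested. Of 38 tested cytosolic ribosomal protein genes, 31 rose, 1 fell and 6 did not pass the test, with a median of 0.25. Rps19 (0.40 ± 0.043 (SE), adjusted p = 0.000801) and Rps18 (0.34) rose; these genes have many near-identical pseudogenes that can take fragments. Of 36 respiratory chain subunits 6 rose, 1 fell and 29 did not pass the test (median 0.062), with 14 rising under TPM scaling, 11 with voom and 3 with the replicate block, and 3, 2, 2 and 1 without the first, the second or the third osteogenic or the third adipogenic library. Of 25 glycolytic and hypoxia-induced genes 9 rose, 3 fell and 13 did not pass the test (5 fell without the first adipogenic library, and 2 rose and 2 fell with all 12 libraries in the fit), with Adm, adrenomedullin, going from 13.2, 11.6 and 13.5 to 36.6, 47.8 and 46.2 FPKM (1.68 ± 0.11 (SE), adjusted p = 0.000123) and Hk1 rising by 0.41. Of 23 genes of the ATF4 amino acid response 10 rose, 0 fell and 13 did not pass the test, with Phgdh, the first enzyme of serine synthesis (1.00 ± 0.051 (SE), adjusted p = 7.1e-05), and Chac1 (0.47) among those that rose. Of 9 chromodomain helicase genes 2 rose, 1 fell and 6 did not pass the test, and Chd3 rose by 0.35. Only 1 rose without the second or the third osteogenic library or with the replicate block. The fall was lost with all 12 libraries in the fit, TPM scaling, voom, no trend or the replicate block. Leaving out any 1 library except the second osteogenic or the first adipogenic one also lost it.

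Control libraries in the same media were then set beside the knockout libraries, which share no library with them. The difference between the genotypes' medium effects passed the test for 2630 of 12871 genes (20.4%), more positive in knockout for 1397 (10.9%) and more negative for 1233 (9.58%). In control libraries 1354 genes were higher (10.5%) and 1581 lower (12.3%) in adipogenic medium. The second control adipogenic library correlated with the other two at r = 0.939 to 0.943 and with osteogenic libraries of both genotypes at 0.980 to 0.984. Without it, 5427 genes differed between genotypes, and 3151 were higher and 2996 lower in the control libraries. Of the 4838 genes called in knockout libraries, 1913 also differed from the control effect. Among 1403 genes called in both genotypes, 889 moved the same way and 514 the opposite way. Across 12871 genes the 2 medium effects correlated at r = 0.17 (Spearman's rho 0.18), a description over genes that are not independent.

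Several glucocorticoid-induced genes went opposite ways in the genotypes. In control libraries 2 of 23 rose and 8 fell (median -0.26), and the difference was positive for 14 genes and negative for 3. Without the second control adipogenic library, 7 rose and 11 fell in controls, and the difference was positive for 15 and negative for 5. Fkbp5 in controls was at 30.6, 32.6 and 31.3 FPKM in osteogenic and at 3.91, 5.46 and 3.69 in adipogenic medium, a log2 difference of -2.62 beside 2.38 in knockout (interaction 5.00). Tsc22d3 in controls was at 36.4, 38.5 and 38.1 and at 6.74, 11.7 and 7.08 FPKM (-2.06, interaction 3.93). All 3 control adipogenic libraries lay below all 3 control osteogenic libraries, although the labelled dexamethasone concentration was higher in adipogenic medium. The control adipogenic and knockout osteogenic libraries were low, and the control osteogenic and knockout adipogenic libraries high. Since Chd7 did not check the labels, an exchange of labels would change what these differences compare, and it was not tested.

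NRF2 targets also had opposite signs: in controls 13 rose and 0 fell (median 0.49), and the difference was negative for 17 of 21 (20 without the second control adipogenic library). Nqo1 in controls rose from 10.8, 10.3 and 11.9 to 22.7, 25.1 and 26.9 FPKM (log2 1.11, interaction -4.36). Prdx1 differed likewise (interaction -2.92). For genes of DNA replication and mitosis 0 rose and 0 fell in controls by limma (4 at an unadjusted p under 0.05; median -0.10), and 18 of 40 had a more negative effect in knockout. Without the second control adipogenic library, 29 of 40 fell in controls (median -0.32), 27 had a more negative and 2 a more positive effect in knockout. Top2a in controls was at 18.9, 20.3 and 17.8 and 14.6, 26.9 and 14.3 FPKM, with the second adipogenic library highest.

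Cholesterol genes other than Abca1, and Alpl, Sema7a and Spp1, had the same sign in both genotypes. Of 27 cholesterol genes 18 fell in controls (median -0.46), and 6 had a more negative and 0 a more positive effect in knockout. Abca1 was an exception in sign, at 0.37 in controls and -1.11 in knockout (interaction -1.48, adjusted p = 0.0509). Alpl rose in controls from 6.62, 5.28 and 5.37 to 57.5, 21.96 and 50.1 FPKM (2.61 beside 2.34 in knockout), and the interaction of -0.27 did not pass the test (adjusted p = 0.659). Sema7a (-2.02) and Spp1 (-0.68) fell in controls as well. Of 33 fatty acid genes, 6 had a more positive and 6 a more negative effect in knockout, beside 10.9% and 9.58% of all genes. Fabp4, Plin2 and Cd36 differed in sign between the genotypes. Fabp4 in controls fell from 33.7, 35.3 and 36.0 to 12.7, 19.6 and 13.04 FPKM (log2 -1.18 beside 0.79 in knockout, interaction 1.97). Plin2 was at -0.36 in controls and 1.18 in knockout (interaction 1.54), and Cd36 at 0.33 and -0.88 (interaction -1.20). Acsl3 (interaction -0.60) and Scd2 (-0.56) fell in both genotypes, with a more negative effect in knockout.

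The genes with the largest interactions were Clec4n (-5.31), Fkbp5 (5.00), Pilra (-4.52), Nqo1 (-4.36), Tsc22d3 (3.93), Mmp12 (-3.71), Treml4 (-3.64) and Mmp8 (-3.43). Clec4n, Pilra and Treml4 code for receptors of myeloid cells. Clec4n in controls was at 51.1, 50.1 and 50.4 FPKM in osteogenic and 255, 57.3 and 264 in adipogenic medium. The summed macrophage markers in control libraries were 14736 to 15235 FPKM in osteogenic medium and 10398 to 20270 in adipogenic medium. Without Lyz2 they were 5779 to 5984 and 4941 to 6336 FPKM, and the second adipogenic library was lowest both ways. The part of these markers in the differences was not tested. The knockout fall of Pilra lost its call in 5 of 6 leave-one-out fits (adjusted p between 0.0937 and 0.137).

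**Figure D5:**
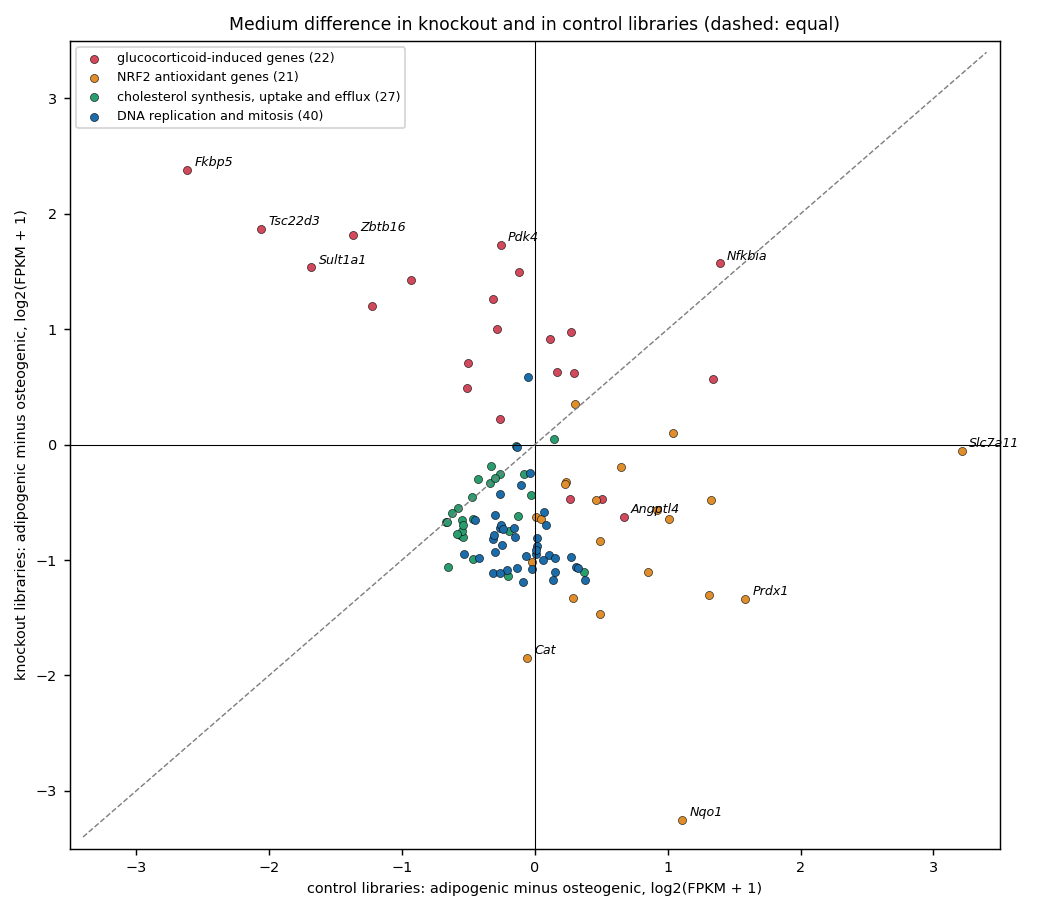
Medium difference (adipogenic minus osteogenic, log2(FPKM + 1)) in the knockout libraries against that in the control libraries for the tested members of 4 gene lists; the dashed line marks equal differences. Fkbp5 (-2.62 in control, 2.38 in knockout) and several other glucocorticoid-induced genes lie upper left, Nqo1 (1.11, -3.25) and most other NRF2 targets lower right, and most cholesterol genes lower left.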

How the data were processed

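The authors deposited FPKM for 54532 Ensembl genes in 12 libraries as 1 table; 54495 genes were matched to a symbol in GENCODE M21. Per the labels, the submitters' processing notes name Bowtie 0.12.2 and the build mm9, while the paper lists HISAT2 and Ballgown; annotation, strand and filters are not given in the sources used here, so overlapping and antisense genes cannot be told apart. No raw reads were analysed. Libraries were grouped by their labels.

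With exonic lengths from GENCODE M21, 98.2% to 98.4% of values under 30 fragments came out whole within 0.02 of a fragment (chance 4%), which gave the fragments per library. Fragments are not independent molecules, so the depths cover counting error only. FPKM is divided by length and depth, and a fold change on the log2(FPKM + 1) scale understates the change of low genes.

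Media were compared with limma 3.58.1 in R 4.3.3 on the log2(FPKM + 1) scale. The prior variance followed mean expression, p-values were adjusted by Benjamini-Hochberg over every gene tested, and the threshold was an adjusted p of 0.05. A gene was tested if 3 or more libraries of the fit reached 1 FPKM. The 6 knockout libraries were fitted alone. The interaction of medium and genotype and the medium effect in control libraries were fitted over 12 libraries. Simulated data with known changes were used to check the fit. Figures were drawn in Python 3.11.15 with matplotlib 3.10.9.

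Members and lists were chosen with earlier results of these data known. The lists, written from general knowledge, are those described in the report and the marker lists. Genes named are a core set for the media, the 10 largest increases and 10 largest decreases with an assigned symbol, 5 or more FPKM on average in the higher group and groups that did not overlap, up to 4 called members with the largest change in each list, and the 8 largest interactions among genes called in both tests under the same symbol and level rule; others are named as chosen after seeing values. Promoters and their coordinates are from RefSeq (GRCm38.p6), not from the build of the deposited values, and 20, 22 and 33 genes of the glucocorticoid, cAMP and mitosis lists had a window. Alternatives were a pseudocount of 0.1, no filter, FPKM of at least 5, TPM scaling, median ratio scaling, no trend, the replicate number as a block, voom on recovered fragments, all 12 libraries in the fit, and each library left out; leaving out control libraries in the control contrast was added after seeing the data.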

Additional observations from a re-analysis of the deposited data

Results flagged for a closer look

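Each result here is a gene named above, or a count of genes, whose medium effect differed between knockout and control libraries by the limma interaction test. Such differences were found for 2630 genes, and the values are log2 differences, knockout effect minus control effect. The causes were not tested.

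Among glucocorticoid-induced genes the differences were Fkbp5 (5.00), Tsc22d3 (3.93), Zbtb16 (3.19), Sult1a1 (3.22), Klf9 (2.42), Pdk4 (1.99), Mt1 (1.61), Sgk1 (1.00), Dusp1 (0.80), Angptl4 (-1.30) and Tgm2 (-0.74). Among clock genes they were Per1 (2.36), Arntl (2.07), Clock (0.41), Cry2 (-0.98), Per2 (-0.94), Per3 (-1.73), Nr1d2 (-1.90) and Dbp (-2.77). The antioxidant genes Nqo1 (-4.36), Prdx1 (-2.92), Gclm (-1.96), Cat (-1.79) and Gsta3 (-2.85) had a more negative effect in knockout.

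Among lipid and adipocyte genes the differences were Fabp4 (1.97), Plin2 (1.54), Lpl (1.28), Cd36 (-1.20), Scd2 (-0.56), Acsl3 (-0.60), Ebf1 (0.49), Apln (-0.92), Mvd (-0.53), Mylip (-0.94), Rxra (0.25) and Ppard (-0.38). Among osteoblast, matrix and contractile genes they were Runx2 (0.59), Dlx5 (0.88), Foxc2 (0.57), Bglap2 (0.99), Ibsp (1.47), Sparc (-0.31), Omd (1.54), Smpd3 (1.97), Col4a1 (0.72), Col4a2 (0.70), Tnn (1.27), Myocd (1.83), Lmod1 (0.82), Loxl4 (0.71), Pdgfrb (0.74), Ly6a (-0.94), Timp3 (-1.86), Adamts1 (2.67), Mmp8 (-3.43) and Mmp12 (-3.71). The cell cycle genes Top2a (-1.11), Cdc20 (-1.55), Plk1 (-1.31) and Prc1 (-1.06) had a more negative effect in knockout. So did the matrix and mineralization genes Pdpn (-1.47), Slc20a2 (-0.80) and Slc20a1 (-0.75).

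Among signalling genes the differences were Id1 (2.17), Id3 (1.30), Id4 (1.25), Gdf6 (2.20), Nog (1.53), Grem1 (-1.31), Fst (1.13), Tgfb2 (0.50), Sfrp4 (-1.78), Fzd5 (1.26), Wif1 (0.90), Crem (-0.77), Igfbp5 (-3.24), Cxcl12 (-1.02), Csf1 (0.87), Tnfsf11 (-1.97) and Nes (-1.22). Among macrophage and immune genes they were Lyz2 (-1.55), Aif1 (-2.35), Cd163 (2.56), Clec4n (-5.31), Pilra (-4.52), Treml4 (-3.64), Fcrls (-2.02), Nxpe5 (-2.78), Slc40a1 (-1.59), Cxcl14 (-2.89), Ccl6 (-0.96), Cfp (-2.62), Cd4 (-1.0) and Ighm (-0.83). Of the other genes named, Rgcc (1.73), Clca3a1 (1.78), Slc1a6 (1.65), Cryab (2.64), Cdo1 (2.34), Adm (1.65), Phgdh (1.02), Rps19 (0.30) and Rps18 (0.24) differed.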

How the results depend on the processing

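With 3 libraries per group, the spread is poorly estimated, and low genes such as Adipoq lie below the level filter. In the knockout libraries 4838 genes were called, between 3510 and 5330 under the other settings and between 3381 and 5059 with 1 library left out. The share called higher was 48.9%, but 62.4% with TPM scaling and 59.2% with voom on recovered fragments. Genes over 2-fold numbered 326, 647 with a pseudocount of 0.1 and 669 with voom. The replicate numbers did not pair the libraries (deviations correlated at 0.0281, -0.0003 and -0.0081), and the replicate block gave 4164 calls.

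For the medium effect in knockout minus control libraries, 2630 genes were called, 1397 more positive and 1233 more negative. The replicate block gave 1722, 918 and 804. TPM scaling, which moved the median of all genes by 0.159, gave 561 more negative, and voom, which moved it by 0.127, gave 787. With 1 library left out the counts ran from 1754 to 5427, from 906 to 2539 and from 825 to 2888, each highest without the second control adipogenic library. The control contrast gave 2935 calls, 1354 higher and 1581 lower, and with 1 control library left out from 1367 to 6147, from 567 to 3151 and from 800 to 2996.

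Of 2181 values for 150 named genes, 2109 kept their direction and side of the threshold, 58 lost the call and 13 gained it. Tnf, at 0.34, ran from -0.98 without the first knockout adipogenic library (the 1 value that reversed) to 1.00 without the third.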
